A study of Homo sapiens with 6 samples.

Results

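The genes described are the replication-independent histone variants, 8 genes of 17280 in the deposited table: H2AZ1, H2AZ2, H2AX, H2AJ and MACROH2A1 of the H2A class, H3-3A and H3-3B of the H3 class, and the linker histone gene H1-10. They were taken from the table by symbol, from a list chosen by gene family with the expression differences of the same comparison in view, so their differences between the groups are given as a description and not as a test. All 8 had a mean above 1 TPM (a share of all transcripts in the library, corrected for gene length) and passed the filter on low values.

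RNA was sequenced from spheres of CAL-27, a human cell line derived from a squamous carcinoma of the tongue. The control group, titled CON, has 3 libraries labelled as normal controls, and the other group, titled LF3, has 3. The series design gives LF3, an inhibitor of Wnt signalling that keeps beta-catenin from TCF4, for 24 h, while the treatment field of the same samples names elesclomol-Cu, a compound that carries copper into cells, for the same time. The groups follow the titles, and "LF3" stands for libraries so titled. Both groups are 1 cell line, and whether replicates were separate cultures is not labelled, so the errors and p-values cover no more than the differences among these libraries, and those may be technical.

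Histones are the proteins around which DNA is wound. Most are made from clustered genes while DNA is copied, and the main RNA of those genes ends in a stem-loop and carries no poly(A) tail. Variant histones come from single genes whose RNA is polyadenylated and which are read outside DNA replication too. Dedicated chaperones and remodelling enzymes place them: H2A.Z at promoters and enhancers, and H3.3 in transcribed genes and at telomeres. H2AX lies throughout chromatin, and kinases phosphorylate it around DNA breaks.

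Sequences at both ends of these genes set them apart from each other and are shown first. H2AX is known to give both kinds of RNA, and it was the 1 member of 8 with the histone stem-loop motif (GG, any 2 bases, CTTTT, any base, AG, any 2 bases, CC) between the stop codon and the end of an annotated transcript of GENCODE release 29 (GRCh38). The motif was also found in 27 of 59 replication-dependent histone genes, and in 41 (0.241%) of all 17030 coding genes searched, these included. The search took only this pattern within annotated transcripts, so a gene without a match was not shown to lack the loop. Below are the stem-loop of H2AX and, as a replication-dependent gene to compare it with, that of H2AC18, with the motif in capitals.
H2AX: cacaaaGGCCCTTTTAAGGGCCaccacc
H2AC18: tcaaaaGGCTCTTTTCAGAGCCacccac

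H2AX, H2AJ and H1-10 had a single exon in their coding transcripts of that release. The longest coding transcript had 5 exons for H2AZ1 and H2AZ2, 3 for H3-3A, 4 for H3-3B and 9 for MACROH2A1. Pseudogenes named after a member numbered 6 for H2AZ1, 6 for H3-3A, 2 for H3-3B and 1 for H2AZ2. The sources used here do not give how reads matching several copies were counted, so the levels of these 4 genes are uncertain to that extent.

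Promoters of the members differed in 2 short motifs, CCAAT (the box bound by NF-Y) and TATAAA (the TATA box), each searched on both strands in the 250 bases before the start site. Of 35116 promoters in the RefSeq-based table of GRCh38.p14, 32% held CCAAT, 2.93% held it at least 3 times and 10.7% held TATAAA. H2AX, H2AZ2 and H3-3B each had 4 copies of CCAAT, and H2AZ1 and H2AJ each had 3. H1-10 had 0 copies, the 4 start sites of H3-3A had 1, 1, 0 and 1, and the 2 start sites of MACROH2A1 had 0 and 2. TATAAA stood in the windows of H2AX, H2AZ1, H3-3B and H1-10. CCAAT was found at 1 or more start sites of H2AX, H2AZ1, H2AZ2, H3-3A and MACROH2A1, which were higher in LF3. It was also found for H2AJ, which was lower, and for H3-3B, whose direction depended on the scaling. Whether the motif bears on these differences was not tested. A match shows only that these letters are there. The 5 windows below cover 2 genes that stood higher in LF3 (H2AX, H2AZ1), 2 that stood lower (H2AJ, H1-10) and 1 that hardly differed (H3-3B), printed 5′ to 3′ on the gene's strand, with both motifs in capitals.
H2AX, chr11:119095466-119095715, minus strand: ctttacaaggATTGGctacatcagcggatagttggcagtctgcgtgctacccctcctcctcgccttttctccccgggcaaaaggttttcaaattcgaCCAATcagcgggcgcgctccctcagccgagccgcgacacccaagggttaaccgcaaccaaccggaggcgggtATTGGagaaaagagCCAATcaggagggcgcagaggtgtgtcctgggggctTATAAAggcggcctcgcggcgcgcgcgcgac
H2AZ1, chr4:99950276-99950525, minus strand: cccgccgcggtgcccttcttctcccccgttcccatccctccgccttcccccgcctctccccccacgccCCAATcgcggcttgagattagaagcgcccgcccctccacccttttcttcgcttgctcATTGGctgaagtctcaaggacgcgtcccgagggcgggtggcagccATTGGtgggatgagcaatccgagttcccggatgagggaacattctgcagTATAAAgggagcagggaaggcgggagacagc
H2AJ, chr12:14774155-14774404, plus strand: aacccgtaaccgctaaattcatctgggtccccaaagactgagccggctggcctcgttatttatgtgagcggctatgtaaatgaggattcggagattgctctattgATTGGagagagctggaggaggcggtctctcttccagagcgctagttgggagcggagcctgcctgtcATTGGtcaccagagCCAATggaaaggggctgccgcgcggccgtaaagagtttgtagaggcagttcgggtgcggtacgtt
H1-10, chr3:129316287-129316536, minus strand: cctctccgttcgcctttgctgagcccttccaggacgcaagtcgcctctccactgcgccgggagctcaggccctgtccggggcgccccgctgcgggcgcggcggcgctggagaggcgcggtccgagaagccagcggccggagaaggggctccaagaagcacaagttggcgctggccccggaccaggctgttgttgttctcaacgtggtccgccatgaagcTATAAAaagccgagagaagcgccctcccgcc
H3-3B, chr17:75779780-75780029, minus strand: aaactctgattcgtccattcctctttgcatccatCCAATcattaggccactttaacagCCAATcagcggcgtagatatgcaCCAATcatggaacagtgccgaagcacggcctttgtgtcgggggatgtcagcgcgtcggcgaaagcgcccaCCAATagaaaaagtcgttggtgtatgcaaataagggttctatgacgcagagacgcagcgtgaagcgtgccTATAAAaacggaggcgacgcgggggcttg

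The libraries titled LF3 held more RNA of the H2A.Z genes, of H2AX, of MACROH2A1 and of H3-3A, and less of H2AJ and H1-10. The largest difference upwards was that of H2AZ1, at 263 ± 17.1 TPM in CON against 984 ± 39.3 TPM in LF3 (mean ± SD, n = 3 in each group, as for all such values), and the largest downwards that of H1-10, with 264 ± 12.9 and 113 ± 2.38 TPM. The groups did not overlap in any of the 8 genes, as in 86.2% of all genes tested. A limma fit over the 12195 genes whose mean reached 1 TPM (on log2(TPM + 1), Benjamini-Hochberg adjusted p under 0.05) called 6 of the 8 higher and 2 lower, against 85.5% of all genes called, 53.2% higher and 32.3% lower. In bulk RNA, fewer cells of a type and less RNA per cell cannot be told apart.

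The median log2 difference of all tested genes was 0.24, and the log2 differences of the members as deposited stand beside that median. Dividing the values of a library by their median ratio to each gene's geometric mean (median-ratio rescaling) brought that median to -0.0055, and quantile normalization brought it to 0.026; called genes were then 50.0% and 51.4% higher, against 62.2% as deposited. Of the 8 members, 5 were called higher and 3 lower under each of these scalings, since H3-3B changed sides. The same fits called 85.3% of all genes after median-ratio rescaling (42.6% higher, 42.7% lower) and 85.4% after quantile normalization (43.9% higher, 41.5% lower). Depth is unknown, since TPM does not keep it. Of 7 markers of squamous epithelium, 6 had a mean of at least 1 TPM, and KRT14 did not. The summed TPM of these 7 was 995 to 1001 in CON and 1633 to 1667 in LF3. Of fibroblast markers 3 of 6 reached that mean (summed TPM 14.8 to 15.8 in CON and 6.81 to 7.69 in LF3), of leukocyte markers CD68 alone among 4 in the table (328 to 340.4 and 45.4 to 49.4) and of endothelial markers CDH5 alone among 3 (0.39 to 0.53 and 6.24 to 7.26); none was at 0 in all libraries, and their part in the results was not tested.

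**Figure D1:**
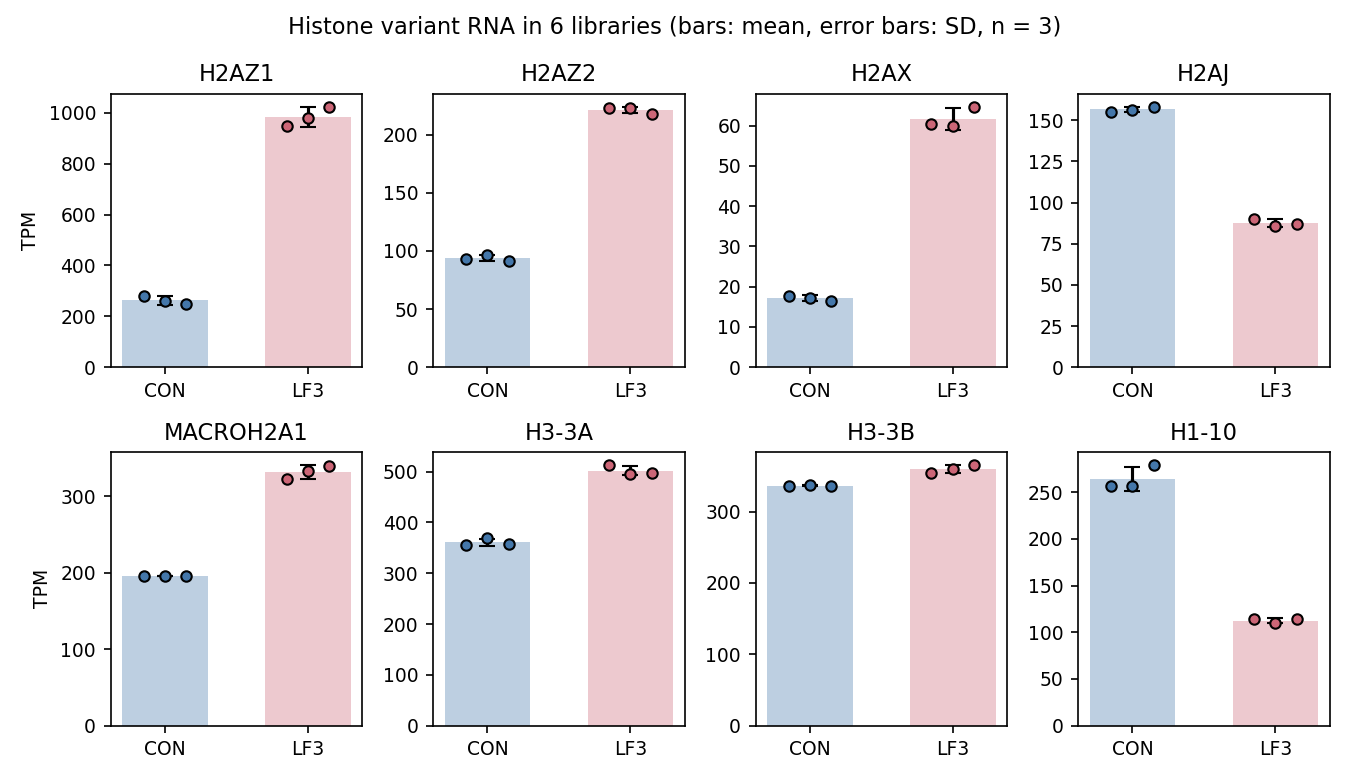
TPM of each variant histone gene in the 3 CON and 3 LF3 libraries; points are libraries, bars are means and error bars SD, and each panel has its own axis from 0. H2AZ1 moves from 263 to 984 TPM, while H3-3B moves from 336 to 359.8 TPM, and H2AJ and H1-10 stand lower in LF3.

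H2AZ1 and H2AZ2 encode both forms of H2A.Z, which differ at a few residues and are placed near transcription start sites. H2AZ1 stood at 281, 261 and 247 TPM in the CON libraries and at 947, 979.8 and 1025 TPM in the LF3 libraries, so that the lowest LF3 library lay far above the highest CON library. The ratio of means was 3.74, and the log2 difference, LF3 minus CON, was 1.90 ± 0.048 (limma standard error, as in the rest of the text). H2AZ2 stood at 93.4, 96.3 and 91.7 TPM in CON and at 223, 223 and 218 TPM in LF3. Its ratio of means was 2.36 and its log2 difference 1.23 ± 0.036. Both genes were thus higher, H2AZ1 by the larger ratio.

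Summed over the pair, H2A.Z RNA was 357 ± 17.8 TPM in CON against 1205 ± 36.6 TPM in LF3. H2AZ1 made up 75.1, 73.1 and 73.0% of that sum in CON and 81.0, 81.5 and 82.5% in LF3, a share that no scaling factor of a library can move. The mean share was 73.7 ± 1.20% in CON and 81.6 ± 0.780% in LF3, and the groups did not overlap. Among all tested genes, 95.7% had a lower log2 difference than H2AZ1 and 85.5% a lower one than H2AZ2.

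H2AX encodes the variant whose tail is phosphorylated next to double-strand breaks. It was the least abundant member in both groups, at 17.8, 17.2 and 16.3 TPM in CON and 60.3, 59.8 and 64.7 TPM in LF3. All LF3 libraries lay more than 3 times above every CON library, with a ratio of means of 3.60 and a log2 difference of 1.79 ± 0.055. On the log2 scale H2AX and H2AZ1 were the 2 members with the most alike profiles over the 6 libraries, at a distance of 0.15 between their centred values, while the other 27 pairs lay 0.36 to 3.83 apart. H2AX is the gene with the stem-loop printed above, and whether its measured RNA ended in that loop or in a poly(A) tail cannot be read from a value per gene.

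H2AJ, an H2A form known to build up in senescent cells, went the other way. Its values were 155, 156 and 158 TPM in CON and 90.0, 85.7 and 86.9 TPM in LF3. The mean was 1.79 times as high in CON as in LF3, and the log2 difference was -0.83 ± 0.037. H2AJ and H2AX thus stood on opposite sides of 0. Both have 1 exon and CCAAT copies in the windows above, and any relation of these features to the differences was not tested.

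MACROH2A1 encodes macroH2A1, an H2A with a large additional domain that is enriched in silent chromatin such as the inactive X chromosome. The CON libraries were nearly equal, at 195.5, 195.0 and 195.7 TPM, and the LF3 libraries stood at 322, 333 and 339 TPM. The ratio of means was 1.70 and the log2 difference 0.76 ± 0.033 (0.49 with median-ratio and 0.52 with quantile scaling). A value per gene does not separate the splice forms macroH2A1.1 and macroH2A1.2. MACROH2A2, the gene of the related macroH2A2, was near 0, at 0.143 ± 0.0321 TPM in CON against 0.270 ± 0.151 TPM in LF3, so macroH2A RNA was almost wholly that of MACROH2A1.

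H3-3A and H3-3B encode the same protein, H3.3, the H3 form placed outside DNA replication. H3-3A stood at 356, 369 and 358 TPM in CON and at 513, 496 and 497 TPM in LF3, with a ratio of means of 1.39 and a log2 difference of 0.47 ± 0.031. H3-3B stood at 336, 337 and 335 TPM in CON and at 354, 360.0 and 365 TPM in LF3, a narrow gap with a ratio of 1.07. Its log2 difference was 0.097 ± 0.030 as deposited, below the median of all genes, and it turned to -0.18 ± 0.040 after median-ratio rescaling and to -0.080 after quantile normalization. It also lost its call in a limma fit without a mean-variance trend. The direction of H3-3B therefore depended on the scaling, whereas H3-3A kept its sign at 0.20 and 0.28.

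The balance between the H3.3 genes does not depend on library scaling by a factor. H3-3B held 48.6, 47.7 and 48.3% of the summed TPM of the pair in CON and 40.9, 42.1 and 42.3% in LF3. The mean share was 48.2 ± 0.435% in CON and 41.7 ± 0.779% in LF3, and the groups did not overlap. Their sum was 697 ± 7.75 TPM in CON against 862 ± 5.57 TPM in LF3. H3-5, a near copy of H3-3B named after its values were seen, stood at 0.613 ± 0.110 TPM in CON against 1.13 ± 0.0709 TPM in LF3, below the filter.

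H1-10, also called H1X, encodes a linker histone, which binds the DNA between nucleosomes. Its values were 256, 257 and 279 TPM in CON and 114, 109.8 and 114 TPM in LF3. The mean was 2.35 times as high in CON as in LF3, with a log2 difference of -1.22 ± 0.042, and 7.92% of all tested genes had a lower one. No library of LF3 came near the CON range.

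**Figure D2:**
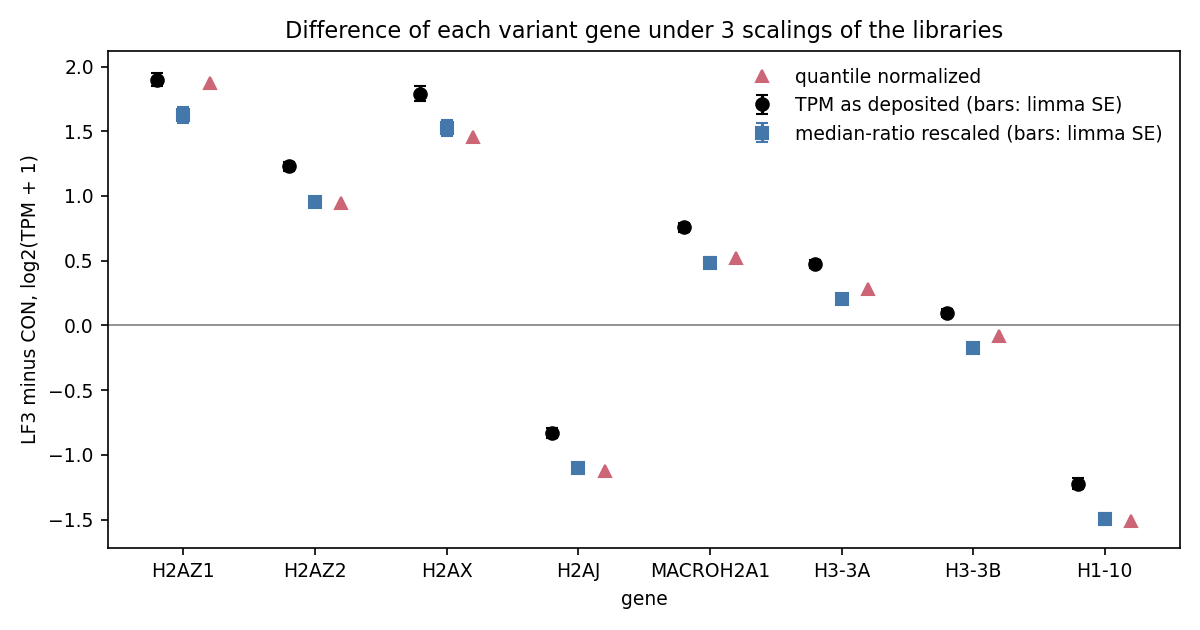
Log2 difference, LF3 minus CON, of each variant gene with TPM as deposited, with median-ratio rescaling and with quantile normalization; bars are limma standard errors, not drawn for quantile normalization. Only H3-3B crosses 0 among the 8, from 0.097 to -0.18 and -0.080.

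Ranked by mean TPM, the members in CON ran H3-3A, H3-3B, H1-10, H2AZ1, MACROH2A1, H2AJ, H2AZ2 and H2AX. In that order the libraries of H1-10 and H2AZ1 overlapped, and no other neighbours did. In LF3 the order was H2AZ1, H3-3A, H3-3B, MACROH2A1, H2AZ2, H1-10, H2AJ and H2AX, with no overlap between neighbours. The summed level of the 8 genes was 1688 ± 5.15 TPM in CON against 2660 ± 44.9 TPM in LF3.

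Within that sum H2AZ1 took 15.6 ± 0.968% in CON and 37.0 ± 0.862% in LF3. The share of H1-10 was 15.7 ± 0.811% in CON and 4.23 ± 0.104% in LF3, and that of H2AJ 9.27 ± 0.124% and 3.29 ± 0.120%. H2AZ1 alone thus held more of the sum in LF3 than both H3.3 genes, whose shares were 18.9 ± 0.612% for H3-3A and 13.5 ± 0.0681% for H3-3B. MACROH2A1 differed less, at 11.6 ± 0.0489% and 12.5 ± 0.173%.

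**Figure D3:**
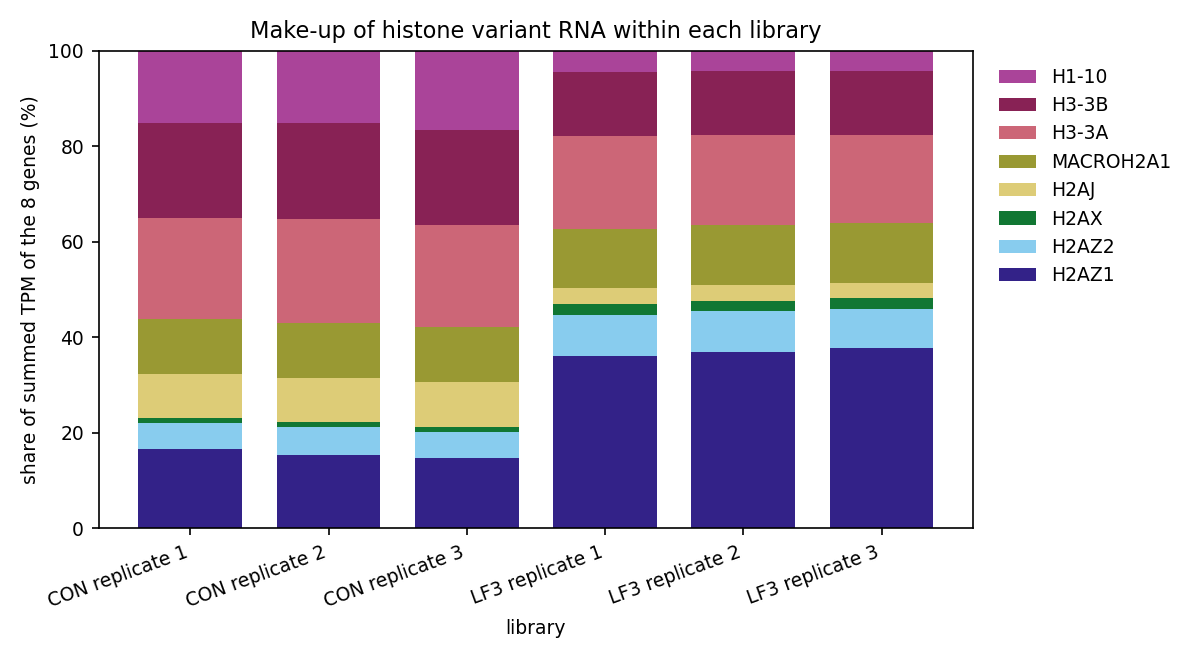
Share of each gene in the summed TPM of the 8 variant genes, per library, in percent. H2AZ1, at the bottom of each bar, has 14.7 to 16.6% in the CON libraries and 36.1 to 37.8% in the LF3 libraries, and H1-10, at the top, has 15.1 to 16.6% and 4.15 to 4.35%.

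Of 17 other histone genes listed outside the replication-dependent clusters, 11 were in the table, and CENPA was among those that passed the filter. CENPA, the H3 form that marks centromeres, stood at 12.2 ± 0.670 TPM in CON against 52.2 ± 4.57 TPM in LF3 and rose (log2 difference 2.01 ± 0.070, limma adjusted p = 5.13e-10).

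Replication-dependent histone genes were lower as a group. Of 59 in the table, 43 were tested, and 0 were called higher and 38 lower (0 and 39 after median-ratio rescaling). Among all tested genes, 53.2% were called higher and 32.3% lower as deposited, and 42.6% and 42.7% after that rescaling. The median log2 difference of these histone genes was -2.05, against 0.24 for all genes. That median moved with the handling of low values: it was -1.20 with no filter, -3.16 with a filter of 5 TPM and -2.74 with a pseudocount of 0.1. H2BC21 (-5.44 ± 0.061), H2AC18 (-5.15 ± 0.043) and H1-2 (-3.88 ± 0.044) had the smallest adjusted p (limma adjusted p = 3.86e-13, 1.18e-13 and 3.86e-13). The sources used here do not say whether poly(A) RNA was selected, so RNA without a tail may be undercounted. Nor do they give how reads matching several of these genes were counted. The sums that follow are of the RNA measured. In the H2A class the 5 variant genes summed to 726 ± 16.9 TPM in CON against 1686 ± 46.2 TPM in LF3. The 14 replication-dependent H2A genes summed to 749 ± 15.2 and 60.8 ± 1.30 TPM. The variants thus made up 49.2 ± 0.413% of the measured H2A RNA in CON and 96.5 ± 0.0852% in LF3.

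For H3, where the 13 replication-dependent genes summed to 46.5 ± 1.95 TPM in CON against 15.4 ± 2.06 TPM in LF3, the share of H3.3 genes was 93.8 ± 0.280% and 98.2 ± 0.230%. In the linker class H1-10, described above, was lower in LF3, and so was the sum of the 6 replication-dependent H1 genes, at 697 ± 9.36 TPM in CON against 46.1 ± 2.02 TPM in LF3.

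**Figure D4:**
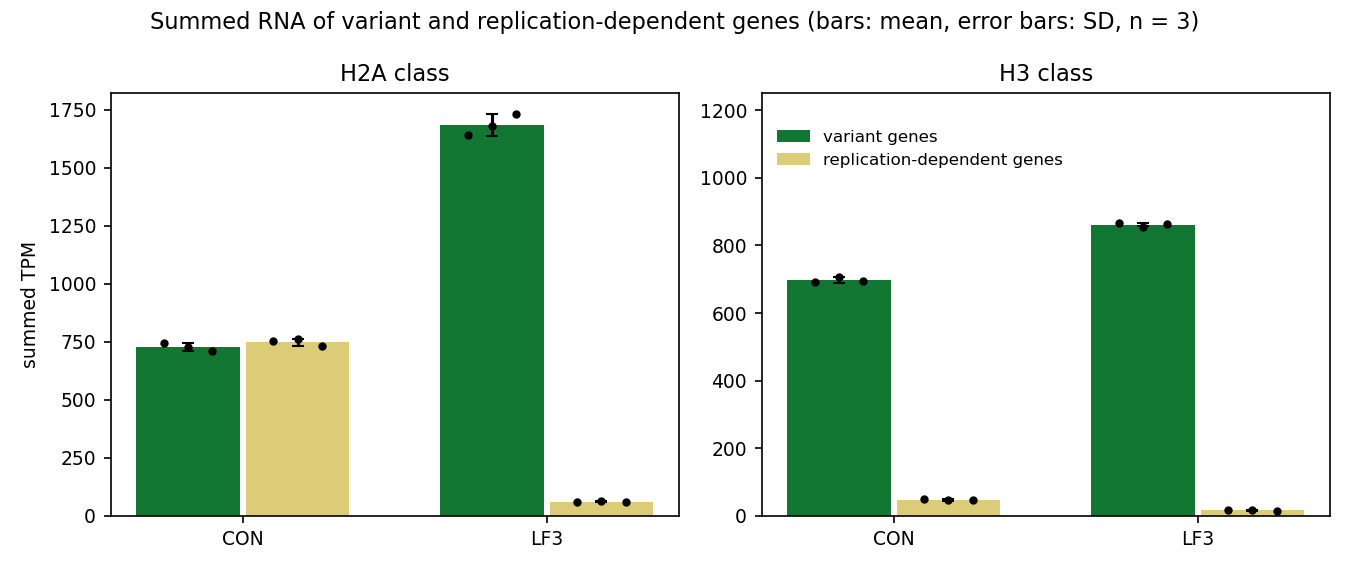
Summed TPM of variant genes and of replication-dependent genes of the H2A and H3 classes; points are libraries, bars means and error bars SD of 3 libraries. In the H2A class the variant sum is higher in LF3 and the replication-dependent sum lower, and the same holds for the H3 class. The linker class is not plotted, and its member H1-10 was lower in LF3, from 264 to 113 TPM.

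Genes that place or remove H2A.Z included more higher than lower calls under each scaling. All tested genes did so as deposited (53.2% higher and 32.3% lower) but were near even after median-ratio rescaling (42.6% and 42.7%). Of 16 listed subunits of the SRCAP, p400-TIP60 and INO80 complexes and ANP32E, all tested, 12 rose and 2 fell (11 and 3 after median-ratio rescaling), with a median of 0.76 (0.50 with median-ratio and 0.44 with quantile scaling). RUVBL1 and RUVBL2, the ATPases shared by these complexes, rose by 2.65 ± 0.067 and 1.69 ± 0.067 on the log2 scale (limma adjusted p = 5.06e-11 and 1.26e-09). ACTL6A, an actin-like subunit, rose by 0.91 ± 0.038, and KAT5, the acetyltransferase of TIP60, fell by 0.30 ± 0.051. The catalytic subunit SRCAP stood at 10.3 ± 0.246 TPM in CON against 17.8 ± 0.442 TPM in LF3. ANP32E, which takes H2A.Z out of chromatin, stood at 46.3 ± 3.91 and 104.5 ± 3.07 TPM. SRCAP and ANP32E were named after their values were seen.

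Carriers of H3.3 were split, as were all tested genes (53.2% called higher and 32.3% lower as deposited, 42.6% and 42.7% after median-ratio rescaling). Among 8 listed genes, all tested, 4 rose and 2 fell as deposited, and 3 rose and 4 fell after median-ratio rescaling, so the majority turned with the scaling; the median was 0.12 and became -0.14. HIRA, the core of the complex that places H3.3 in transcribed genes, rose from 6.62 ± 0.705 to 31.8 ± 0.460 TPM (limma adjusted p = 5.54e-10). ASF1A, which hands H3.3 to HIRA, rose by 2.10 ± 0.080 on the log2 scale and DEK by 1.20 ± 0.063. The HIRA partners UBN2 and CABIN1 fell by 1.32 ± 0.077 and 0.42 ± 0.067. DAXX, the carrier of H3.3 to telomeres and repeats, was called higher as deposited (0.13 ± 0.040) and lower after median-ratio rescaling (-0.14); it was named after its values were seen.

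Listed were 18 genes that phosphorylate H2AX, read the mark or remove it, all tested. Of these, 11 rose and 4 fell (10 and 5 after median-ratio rescaling). The shares of all tested genes were 53.2% higher and 32.3% lower as deposited, and 42.6% and 42.7% after that rescaling. The median of the list was 0.60 as deposited, 0.34 with median-ratio and 0.28 with quantile scaling. The kinases that act on H2AX did not move together. ATR and PRKDC rose by 1.94 ± 0.090 and 1.91 ± 0.051 on the log2 scale, and ATM fell from 13.1 ± 1.11 to 7.55 ± 0.573 TPM (limma adjusted p = 4.42e-09, 7.78e-11 and 9.04e-06). PPP4C, the catalytic subunit of a phosphatase that removes the mark, rose by 0.95 ± 0.045. RNF168, a ubiquitin ligase recruited downstream of the mark, and EYA3, a tyrosine phosphatase of H2AX, fell by 0.72 ± 0.067 and 0.59 ± 0.067.

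Of 7 listed genes that place the centromeric variant, all tested, 5 rose and 1 fell, as deposited and after median-ratio rescaling. Of all tested genes, 53.2% were called higher and 32.3% lower as deposited, and 42.6% and 42.7% after that rescaling. The median of the list was 1.02 (0.76 with median-ratio and 0.72 with quantile scaling). OIP5 and HJURP, which bring CENP-A to the centromere, rose by 2.37 ± 0.072 and 0.99 ± 0.044 on the log2 scale, CENPN, which binds CENP-A nucleosomes, by 1.15 ± 0.046, and RSF1 fell by 0.67 ± 0.085 (limma adjusted p = 1.91e-10, 3.50e-09, 1.28e-09 and 2.04e-05). Of 13 carriers of replication-dependent histones, 12 rose and 1 fell, also after median-ratio rescaling, although the replication-dependent histone genes were lower. The median of these carriers was 1.56 (1.28 with median-ratio and 1.30 with quantile scaling). MCM2, NASP and SSRP1 rose by 2.28 ± 0.043, 1.74 ± 0.041 and 1.56 ± 0.037 (limma adjusted p = 6.53e-12, 3.07e-11 and 3.18e-11). NAP1L1, a carrier of H2A and H2B, had -0.098 ± 0.040 as deposited. It was called lower at -0.37 ± 0.038 with median-ratio and at -0.30 with quantile scaling. Its call was lost in 6 of 16 other settings. Among them were the fits without CON replicate 2, LF3 replicate 1 or LF3 replicate 3 (limma adjusted p = 0.150, 0.0574 and 0.130).

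**Figure D5:**
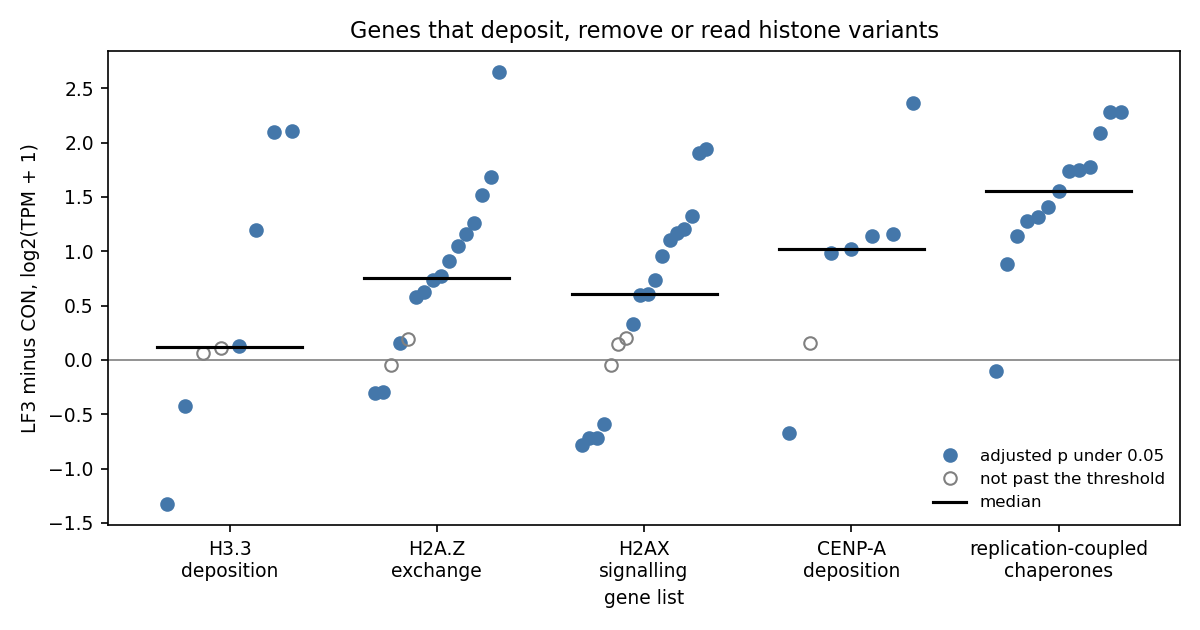
Log2 difference, LF3 minus CON, of each tested gene in 5 lists of histone carriers, remodellers and readers; filled points passed an adjusted p of 0.05, open points did not, and lines are list medians. The medians run from 0.12 for H3.3 deposition to 1.56 for replication-coupled chaperones, where the median of all genes was 0.24.

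Likeness was measured as the Euclidean distance between log2(TPM + 1) values over the 6 libraries, each gene centred on its own mean, among the 8276 genes whose mean reached 10 TPM. With 2 groups of 3 libraries this mostly ranks genes by the size of the group difference. The 2 nearest genes were MCAT and TOMM22 for H2AZ1 (distances 0.074 and 0.090), POLD1 and TIMM50 for H2AZ2 (0.037 and 0.039), and PSMD13 and DHRS11 for H2AX (0.055 and 0.057). For MACROH2A1 they were SLC25A5 and DDB1, and for H3-3A COPS8 and HIF1AN, while the nearest to H3-3B was SF3B2. The genes that stood lower had ITM2C and MXD4 (H1-10) and GGA3 and CD40 (H2AJ) as nearest. Many genes lay close to each member: within a distance of 0.25 there were 141 for H2AZ1 and 1072 for H3-3A.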

How the data were processed

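RNA of 3 CON and 3 LF3 libraries was sequenced. It had been extracted with Trizol and was read from one end over 50 bases on a BGISEQ500, per the labels' protocols. The authors deposited TPM per gene and library, to 2 decimals, summing to the same total in each library. Per the submitters' processing notes, HISAT, Bowtie2 and GRCm38.p6 were named; GRCm38 is the mouse genome, yet the gene identifiers are human, and the settings of the alignment are not stated in the sources used here. No coordinate comes from the deposited table: promoter windows are from RefSeq (GRCh38.p14), where all 8 members matched by gene identifier, and transcript models from GENCODE release 29.

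TPM values were analysed as log2(TPM + 1), a scale that shrinks differences of low genes. The 12195 of 17280 genes whose mean reached 1 TPM were fitted with limma 3.58.1 in R 4.3.3 with a mean-variance trend. Tests were two-sided, Benjamini-Hochberg adjusted over all tested genes, threshold 0.05. The procedure was tested on simulated data in which few genes changed, which does not test the scaling of the libraries. An exact permutation test of 1 gene cannot go below 0.1 with 3 against 3 and was not used. Members and gene lists were chosen with earlier results of these data known. Named are all 8 members, CENPA and MACROH2A2, and of each list up to 3 called genes in each direction with the smallest adjusted p at a mean of at least 5 TPM; exceptions are marked, and some genes that the rule names are not reported here. The alternatives were other pseudocounts, filters, scalings and variance models, a replicate block and leaving out each library. No 2 libraries were identical. Plots were made in Python 3.11.15 (matplotlib 3.10.9).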

Additional observations from a re-analysis of the deposited data

How the results depend on the processing

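The 8 members kept their sign in every alternative run, except H3-3B, which was -0.18 with median-ratio rescaling and -0.080 with quantile normalization and which lost its call without a trend (5 members higher and 2 lower); leaving out 1 library gave 0.087 to 0.11 for H3-3B, 1.86 to 1.95 for H2AZ1 and -1.24 to -1.18 for H1-10. The share of H3-3B in its pair in LF3 minus CON was -6.76 to -6.03 percentage points when a library was left out, and that of H2AZ1 7.51 to 8.63. Among the lists, the count of H3.3 carriers called lower was 4 under both scalings, with medians of -0.14 and -0.20, against 2 as reported; UBN1 and DAXX made the difference (genes named here for a changed call were chosen after their values were seen, and the cause of these changes was not tested). The count of H2A.Z exchange genes called lower was 1 with a filter of 5 TPM, 4 after quantile normalization and 1 to 2 with a library left out, where EPC1 lost its call without CON replicate 2 (limma adjusted p = 0.0645). The single lower call among replication-coupled chaperones, NAP1L1, became 0 with no filter, without a trend and with array weights, and 0 to 1 over the fits without 1 library. With no filter 2 other variant histones were called higher, H3-5 being added, and 1 replication-dependent histone, H2AC4, was; with a library left out the latter count was 0 to 2, with H3C7 without CON replicate 2 and H3C3 and H4C3 without LF3 replicate 1. With the replicate number as a block, 6536 genes were called higher and 3986 lower, and the members' calls stayed at 6 and 2; among the listed genes the block changed 1 call, that of RAD50, which became higher (limma adjusted p = 0.0217). Deviations of same-numbered libraries correlated at 0.048, 0.106 and 0.160 across genes, and those of differently numbered libraries at -0.170 to 0.074. Not every library correlated best with its own number. Deviations from a mean of 3 libraries cannot decide whether the numbers pair the samples. Depth is unknown in TPM, so the precision of low values such as those of MACROH2A2 cannot be given.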
